A study of Mus musculus with 11 samples.

Results

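The genes described here are receptors and ligands of the Notch pathway and the enzymes that put sugars on the receptors, measured in 3 populations of mouse CD4+ T cells. They were chosen by name: Notch1, Notch2, Dll1, Dll4, Jag2, Lfng, Mfng, Rfng, Pofut1 and Poglut1, each read from the probe set whose identifier carries a RefSeq transcript of the gene. Of the 10 names 9 had such a probe set, 1 each, out of 909 named genes and 1246 probe sets. Poglut1 had none and is not analysed here. All cells came from the spleens of female C57BL/6 mice, a strain with no transgene named, and were sorted by flow cytometry. The Treg population was CD4+CD25+ and CD45RBlow and has 3 arrays (replicates 1, 2 and 4). The CD25- CD45RBlow population has 4 arrays (replicates 1 to 4), as has the CD25- CD45RBhigh population, and both are called here by their CD45RB level. CD25 is a chain of the interleukin-2 receptor that marks regulatory T cells, and high CD45RB marks naive cells. The labels call the CD25- CD45RBlow cells activated or memory cells, and the mice of the CD25- samples naive. Mice of the CD25- samples were 4 to 6 weeks old, while no age is stated for the Treg mice, so age and population cannot be told apart in the Treg comparisons. Nothing says that replicates are separate animals, so p-values measure the spread between these samples, which may be technical.

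Notch receptors sit in the cell membrane and are switched on by Delta-like and Jagged ligands on neighbouring cells. Binding leads to cleavage by a metalloprotease and then by gamma-secretase, and the freed intracellular part joins RBPJ on DNA to turn on target genes such as Hes1. Pofut1 adds fucose to the EGF repeats of the receptor, Poglut1 adds glucose there, and the Fringe enzymes Lfng, Mfng and Rfng lengthen the fucose with N-acetylglucosamine, which changes how well each kind of ligand activates the receptor. In lymphocytes the pathway is best known for T lineage commitment through Notch1 and for marginal zone B cells through Notch2.

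Promoter windows are shown for the genes on which the results turn: Lfng and Rfng, which differed together between replicate sets, and Notch2 and Dll1, which were higher in Treg cells. Each runs from 250 bases before to 50 after the annotated start, 5′ to 3′ on the gene's strand, as given by RefSeq for GRCm38.p6. The Lfng window is chr5:140607091-140607390 on the plus strand, and Rfng is chr11:120784155-120784454 on the minus strand. Notch2 is chr3:98013288-98013587 on the plus strand. Dll1 has starts at chr17:15375774-15376073 and chr17:15376883-15377182, both on the minus strand. Capitals mark, in Lfng, the RBPJ core TGGGAA on either strand and, in Rfng and Notch2, the GC box GGGCGG on either strand. In the Dll1 windows neither was found.
Lfng: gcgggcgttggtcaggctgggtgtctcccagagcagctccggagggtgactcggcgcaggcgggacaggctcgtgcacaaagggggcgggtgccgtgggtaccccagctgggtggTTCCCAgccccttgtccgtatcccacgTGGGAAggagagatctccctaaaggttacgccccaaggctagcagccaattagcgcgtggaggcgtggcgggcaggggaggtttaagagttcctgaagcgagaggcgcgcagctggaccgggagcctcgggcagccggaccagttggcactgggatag
Rfng: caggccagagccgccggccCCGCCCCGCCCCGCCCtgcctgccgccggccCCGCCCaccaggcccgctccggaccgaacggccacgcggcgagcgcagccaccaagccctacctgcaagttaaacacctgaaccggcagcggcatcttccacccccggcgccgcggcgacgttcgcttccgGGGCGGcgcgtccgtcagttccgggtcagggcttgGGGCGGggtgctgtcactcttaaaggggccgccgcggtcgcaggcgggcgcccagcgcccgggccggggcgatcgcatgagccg
Notch2: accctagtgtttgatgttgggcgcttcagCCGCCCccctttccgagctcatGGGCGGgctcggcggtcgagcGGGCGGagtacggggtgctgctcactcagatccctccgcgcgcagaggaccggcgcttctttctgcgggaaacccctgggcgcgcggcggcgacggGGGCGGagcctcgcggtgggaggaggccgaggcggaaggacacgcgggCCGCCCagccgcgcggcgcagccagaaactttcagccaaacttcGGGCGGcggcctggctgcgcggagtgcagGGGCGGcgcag
Dll1, first start: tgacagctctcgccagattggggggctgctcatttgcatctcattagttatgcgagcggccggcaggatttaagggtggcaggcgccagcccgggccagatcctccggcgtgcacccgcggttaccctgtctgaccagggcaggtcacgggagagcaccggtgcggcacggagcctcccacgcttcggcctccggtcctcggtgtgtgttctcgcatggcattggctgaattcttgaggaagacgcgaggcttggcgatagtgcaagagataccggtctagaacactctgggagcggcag
Dll1, second start: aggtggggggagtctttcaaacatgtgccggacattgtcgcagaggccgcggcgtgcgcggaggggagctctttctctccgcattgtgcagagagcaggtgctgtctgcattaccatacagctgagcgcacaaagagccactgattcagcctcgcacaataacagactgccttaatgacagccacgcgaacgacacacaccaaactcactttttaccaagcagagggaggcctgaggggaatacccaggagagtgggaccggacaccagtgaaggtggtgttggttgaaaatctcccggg

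The Lfng window held the RBPJ core 2 times, and the copy on the plus strand lies within the longer form CGTGGGAA, which begins 110 bases before the start. The core occurs in 25.6% and the longer form in 0.734% of 32851 mouse promoter windows of this length. GC boxes, the sites bound by Sp factors, were found 7 times in the Notch2 window and 6 times in the Rfng window, where some copies overlap by a base. The Lfng window held 1 GC box, which is left in lower case above. GC boxes occur in 35.7% of all windows. RefSeq windows were found for 9 of the 10 names, with 10 windows in all, and none for Mfng. These matches describe the letters of the windows, and no binding was measured.

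The 11 arrays had medians between 4.85 and 4.94 on the log2 scale, and their number limits the precision of every value. Where a population averaged less than 3.64, the lower quartile over the whole table, the gene is called near background. The sort was checked on fixed markers: 4 of 8 Treg markers were measured, among them Il2ra, which encodes CD25, and all 4 were higher in Treg cells than in either other population. Il2ra averaged 9.84 ± 0.17 (SD, n = 3) in Treg, 6.17 ± 0.36 (n = 4) in CD45RBlow and 4.07 ± 0.27 (n = 4) in CD45RBhigh arrays. The T lineage markers Cd3e, Cd4, Cd5 and Cd28 had no named probe set here, so the CD4+ identity itself was not checked. Replicates 1 and 2 stood apart from replicates 3 and 4 in every population, so results are also given within these sets. The labels do not say what the replicate numbers mark. In these bulk RNA samples, fewer cells of a type and less RNA per cell cannot be told apart. Replicate values for the 9 genes are plotted by population.

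**Figure D1:**
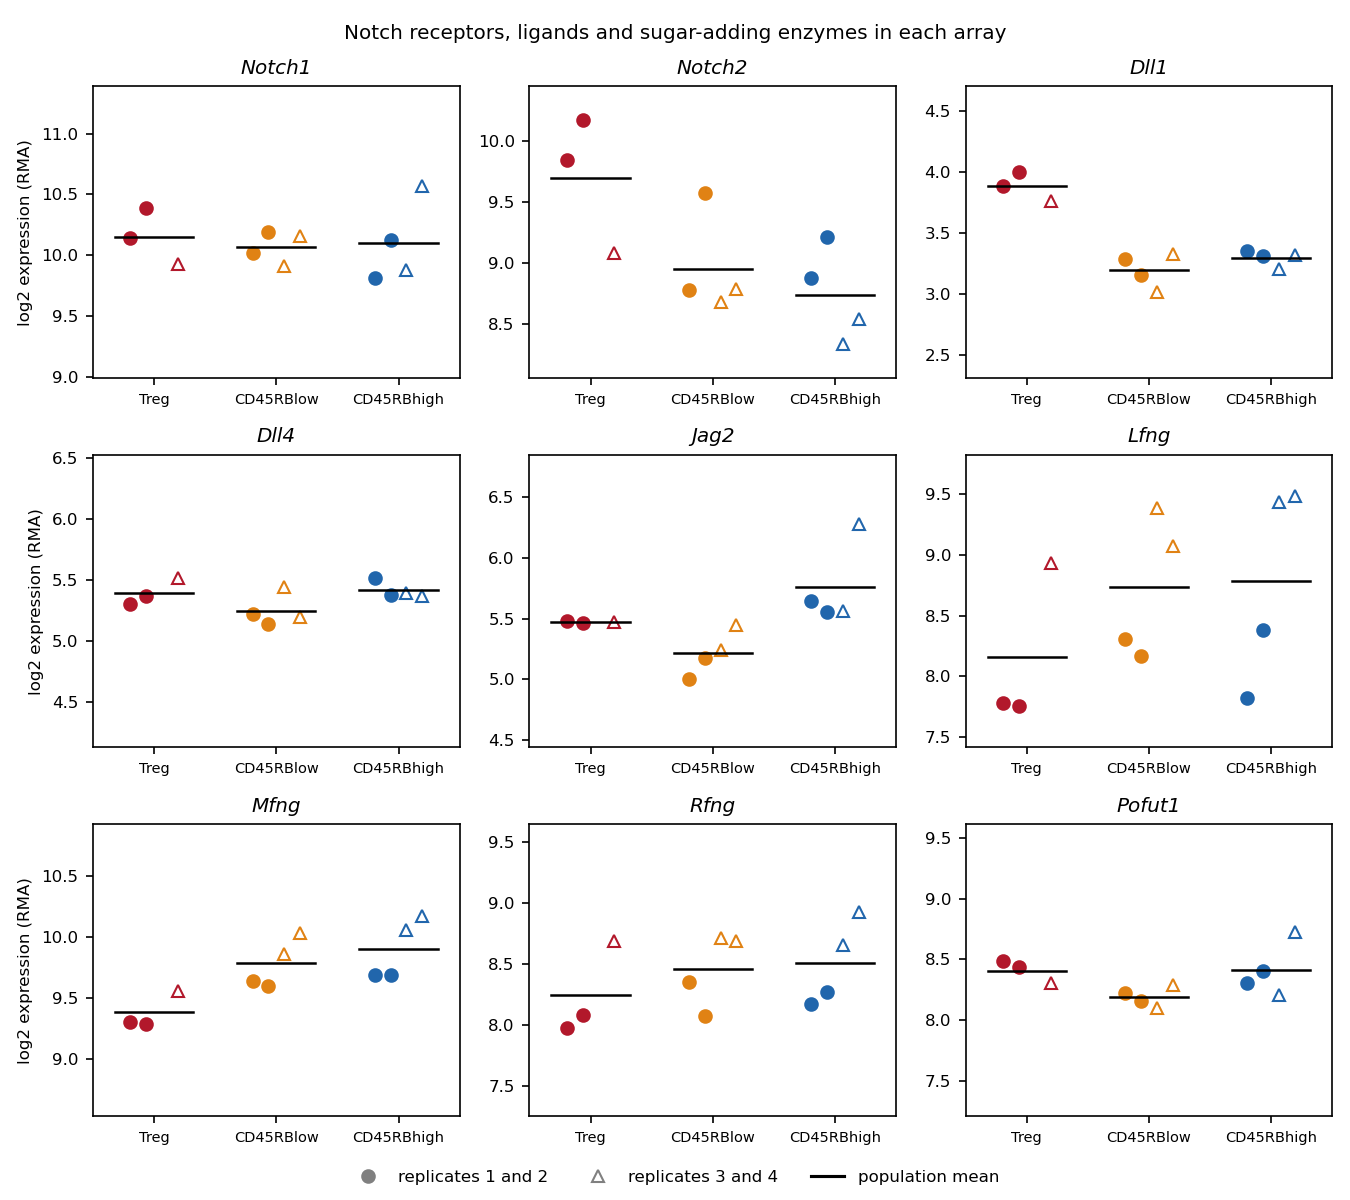
Log2 expression of the 9 genes in each of the 11 arrays, by population. Filled circles are replicates 1 and 2, open triangles replicates 3 and 4, and bars population means; each panel spans the same log2 range. Dll1 is higher in every Treg array than in any other array, and Lfng is lower in replicates 1 and 2 than in replicates 3 and 4 of every population.

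Between Treg and CD45RBhigh cells, which set regulatory against naive-type CD4+ cells, Notch2 and Dll1 were higher and Mfng was lower in Treg cells. These were 2 of 9 genes higher, where 10.3% of all 1246 probe sets were, and 1 of 9 lower, where 8.59% were, at an adjusted p under 0.05 in limma. When the replicate number entered as a block, 2 were higher and 2 lower, beside 12.1% and 14.4% of all probe sets. The arrays of the 2 populations did not overlap for 3 of the 9 genes, Dll1, Jag2 and Mfng, as for 25.0% of all probe sets. The median log2 difference was -0.02 over the 9 genes and -0.04 over all probe sets.

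Notch2, the receptor read by a probe set whose suffix s means that it may not be specific to 1 transcript, showed the widest difference of the 9 genes between these populations. Its log2 values were 9.84, 10.17 and 9.08 in Treg replicates 1, 2 and 4, and 8.88, 9.21, 8.33 and 8.54 in CD45RBhigh replicates 1 to 4. Treg replicates 1 and 2 lay above every CD45RBhigh array, while Treg replicate 4 lay below CD45RBhigh replicate 2. The log2 difference was 0.96 (SE 0.30, adjusted p = 0.0442, limma), a 1.95-fold higher level in Treg cells, and 0.85 with the replicate block (adjusted p = 0.000374). The call was narrow. It was lost without Treg replicate 1 (adjusted p = 0.134) or 2 (0.190), without CD45RBlow replicate 1 (0.0610), 3 (0.0534) or 4 (0.0580), and without CD45RBhigh replicate 1 (0.0655), 3 (0.107) or 4 (0.0939), with the log2 difference between 0.72 and 1.27 over all 11 such fits. It was also lost with only the arrays compared (adjusted p = 0.0589) and with arrays centred on their medians (0.0518). Within replicates 1 and 2 the difference was 0.96 (adjusted p = 0.0171), and within replicates 3 and 4, where Treg has 1 array, it was 0.65 (0.178).

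Notch1, the receptor of T lineage commitment, did not pass the test. Its log2 values were 10.14, 10.39 and 9.93 in Treg arrays, against 9.81, 10.13, 9.88 and 10.57 in CD45RBhigh arrays. The populations overlapped fully, and the log2 difference was 0.05, with a 95% interval from -0.32 to 0.43.

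Among the ligands, Dll1, a Delta-like ligand of Notch, read 3.89, 4.00 and 3.76 in Treg replicates 1, 2 and 4. In CD45RBhigh replicates 1 to 4 it read 3.35, 3.31, 3.20 and 3.32, and in CD45RBlow replicates 1 to 4 it read 3.29, 3.16, 3.02 and 3.33. Every Treg array lay above every other array, but the means of both CD25- populations, 3.20 in CD45RBlow and 3.30 in CD45RBhigh, are near background. The Treg mean of 3.885 is above the limit of 3.64 but below the median of every array. The sizes are therefore uncertain. Dll1 was 1.504-fold higher in Treg than in CD45RBhigh cells (log2 difference 0.59, SE 0.09, interval 0.40 to 0.78, adjusted p = 0.000445, limma). In Treg cells it was 1.61-fold higher than in CD45RBlow cells (0.69, SE 0.09, interval 0.50 to 0.88, adjusted p = 0.00021). Both calls held without each of the 11 arrays in turn and within each replicate set of the joint fit. A fit of replicates 3 and 4 alone, with 1 Treg array, gave 0.50 (adjusted p = 0.169) against CD45RBhigh and 0.59 (0.161) against CD45RBlow. Dll1 falls out where probe sets with a mean in the lowest quartile are removed.

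Dll4, the other Delta-like ligand, averaged 5.40 ± 0.11 (SD, n = 3) in Treg, 5.25 ± 0.13 (n = 4) in CD45RBlow and 5.42 ± 0.07 (n = 4) in CD45RBhigh arrays. No pair of neighbours in that order differed by the test, and the 95% interval of Treg minus CD45RBhigh ran from -0.20 to 0.16. Dll4 had the same value as deposited in Treg replicate 2 and CD45RBhigh replicate 4, and again in Treg replicate 4 and CD45RBhigh replicate 1.

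Jag2, a Jagged ligand, read 5.48, 5.46 and 5.47 in Treg replicates 1, 2 and 4, the tightest Treg group of the 9 genes. It read 5.01, 5.17, 5.25 and 5.45 in CD45RBlow replicates 1 to 4, and 5.64, 5.55, 5.56 and 6.28 in CD45RBhigh replicates 1 to 4. The 3 populations did not overlap and stood in the order CD45RBlow, Treg, CD45RBhigh. Neither step of that order passed the test over all 11 arrays. Treg minus CD45RBlow was 0.25 (95% interval -0.11 to 0.62, adjusted p = 0.425) and Treg minus CD45RBhigh was -0.29 (-0.65 to 0.08, adjusted p = 0.294). Without CD45RBhigh replicate 4 Treg minus CD45RBhigh was -0.11 (adjusted p = 0.528). A separate fit of replicates 1 and 2 put Treg above CD45RBlow by 0.38 (adjusted p = 0.0261), which passed.

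Only the ends of the order for Jag2 differed by the test: it was 1.46-fold lower in CD45RBlow than in CD45RBhigh cells (log2 difference -0.54, SE 0.15, adjusted p = 0.0403, limma). This was the only call among the 9 genes in that comparison, where 4.98% of all probe sets were lower and 7.62% higher, and where 17.8% had no overlap, as Jag2 alone of the 9 had. No gene of the 9 was higher in CD45RBlow cells, either at an unadjusted p under 0.05 (0 genes) or in the blocked fit (0 genes). The median log2 difference was -0.10 over the 9 genes and -0.08 over all probe sets. The Jag2 call was lost without Treg replicate 1 (adjusted p = 0.0590), 2 (0.0597) or 4 (0.0542), without CD45RBlow replicate 1 (0.122), 2 (0.0997) or 3 (0.0710), and without CD45RBhigh replicate 1 (0.0611). It held without CD45RBhigh replicate 4, the highest array, at -0.37 (adjusted p = 0.0269). These fits had no block. With all arrays the call also held with the replicate block (adjusted p = 0.00621, limma), the replicate set as a term (0.0111) and the number as a random block (0.0144). With only the arrays compared the adjusted p was 0.0799, and the differences within replicates 1 and 2 and within replicates 3 and 4 were -0.51 (0.112) and -0.57 (0.0970).

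Of the Fringe enzymes, only Mfng passed the test between populations in the fit without a block. Its log2 values were 9.31, 9.29 and 9.56 in Treg replicates 1, 2 and 4. They were 9.64, 9.60, 9.86 and 10.03 in CD45RBlow replicates 1 to 4, and 9.69, 9.69, 10.06 and 10.17 in CD45RBhigh replicates 1 to 4. Every Treg array lay below every other array, while the CD25- populations overlapped. Mfng was 1.43-fold lower in Treg than in CD45RBhigh cells (log2 difference -0.52, SE 0.14, adjusted p = 0.0283, limma). In fits without a block, the call was lost without Treg replicate 1 (adjusted p = 0.0981) or 2 (0.111) and without CD45RBhigh replicate 3 (0.0719) or 4 (0.0642). With all arrays and the replicate number as a block, the difference was -0.48 (adjusted p = 0.000441, limma). With the replicate set as a term it was -0.46 (0.000207). The difference was -0.39 within replicates 1 and 2 (adjusted p = 0.00852) and -0.56 within replicates 3 and 4 (0.00450). In a fit of replicates 3 and 4 alone it did not pass (adjusted p = 0.0778).

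Between Treg and CD45RBlow cells, Dll1 was the only gene of the 9 called, 1 higher beside 6.74% of all probe sets and 0 lower beside 5.78%. Before adjustment, 2 were higher and 1 was lower at a p under 0.05. The blocked fit called 2 higher, Notch2 and Dll1, and 1 lower, Mfng, beside 8.99% and 10.7% of all probe sets. Notch2 then differed by 0.63 (adjusted p = 0.00372), against 0.75 without the block (0.150), and Mfng by -0.36 (0.00422), against -0.40 without it (0.113). With the number as a random block Notch2 did not pass (0.71, adjusted p = 0.0649). Its difference was 0.83 within replicates 1 and 2 (adjusted p = 0.0416) and 0.35 within replicates 3 and 4 (0.541), and in a separate fit of replicates 1 and 2 it did not pass. Leaving out Treg replicate 4 also brought Notch2 past the threshold, at 1.06 (adjusted p = 0.0394). The arrays did not overlap for 4 of the 9 genes, Dll1, Jag2, Mfng and Pofut1, as for 21.3% of all probe sets. The median log2 difference was 0.15 over the 9 genes and 0.04 over all probe sets. The Treg comparisons share the Treg arrays, so their values are not independent of each other.

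Lfng, the Fringe whose levels spread most within populations, read 7.78, 7.76 and 8.93 in Treg replicates 1, 2 and 4. In CD45RBlow replicates 1 to 4 it read 8.30, 8.17, 9.38 and 9.07, and in CD45RBhigh replicates 1 to 4 it read 7.83, 8.38, 9.43 and 9.48. The populations overlapped, since replicates 1 and 2 were low in each. Treg minus CD45RBhigh was -0.62 (SE 0.46, adjusted p = 0.443, limma), but -0.41 (SE 0.13, adjusted p = 0.0471) once the replicate number was a block, where Lfng passed the threshold. It passed with the replicate set as a term too (-0.43, adjusted p = 0.0300), but not with the number as a random block (-0.55, 0.345), nor within replicates 1 and 2 (-0.34, 0.216) or within replicates 3 and 4 (-0.52, 0.131). Treg minus CD45RBlow was -0.57 (SE 0.46, adjusted p = 0.523). Single arrays moved these sizes by over 1.5 times: Treg minus CD45RBhigh was -1.01 without Treg replicate 4, -0.94 without CD45RBhigh replicate 1, -0.41 without CD45RBhigh replicate 3 and -0.39 without CD45RBhigh replicate 4. Treg minus CD45RBlow was -0.96 without Treg replicate 4, -0.37 without Treg replicate 2 and -0.36 without CD45RBlow replicate 3, and no such fit passed the test.

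Rfng, the remaining Fringe, averaged 8.25 ± 0.39 (SD, n = 3) in Treg, 8.46 ± 0.31 (n = 4) in CD45RBlow and 8.51 ± 0.35 (n = 4) in CD45RBhigh arrays, and no difference passed the test. Its Treg minus CD45RBhigh interval ran from -0.77 to 0.25.

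Pofut1, the O-fucosyltransferase on whose product the Fringe enzymes act, read 8.31 to 8.48 in Treg, 8.10 to 8.29 in CD45RBlow and 8.21 to 8.72 in CD45RBhigh arrays. Every Treg array lay above every CD45RBlow array, but the log2 difference of 0.22 did not pass the test (95% interval -0.03 to 0.46, adjusted p = 0.287). Treg and CD45RBhigh means differed by -0.00299. The plot of population differences sets the fits without and with the block side by side.

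**Figure D2:**
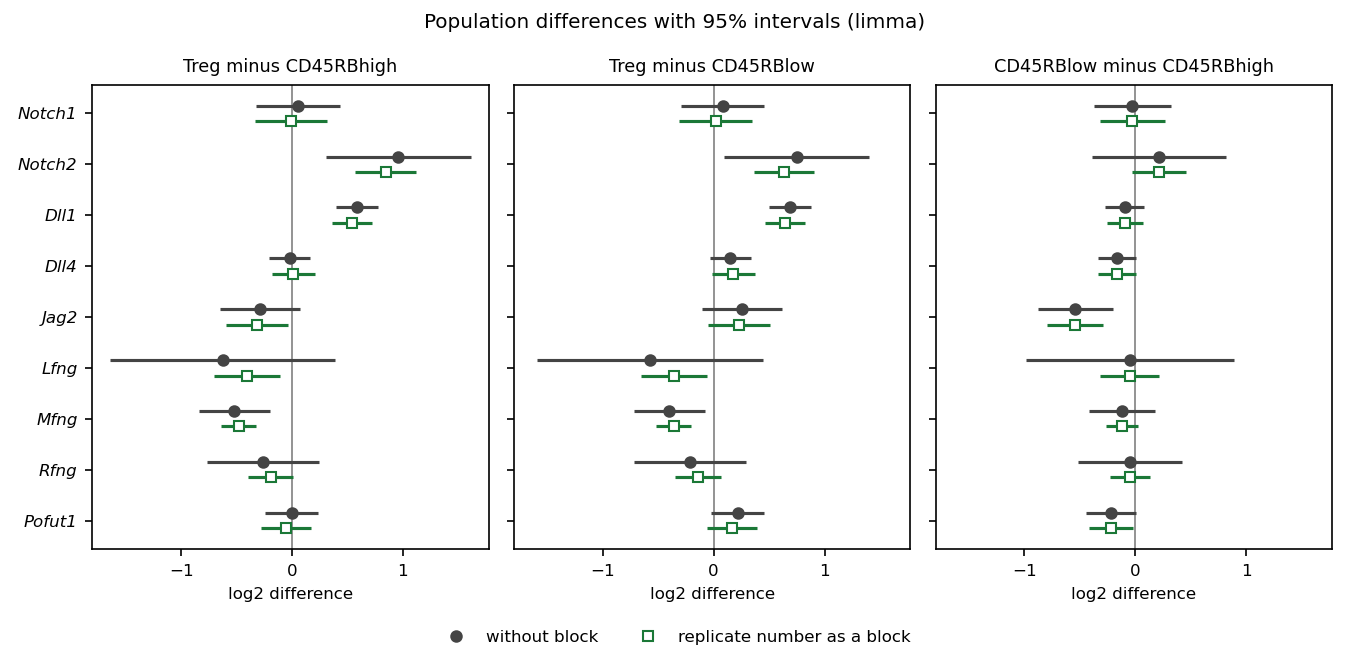
Log2 differences of the 9 genes for each pair of populations, from limma. Circles are the fit without a block, squares the blocked fit (replicate number), and bars 95% intervals. The Lfng bar for Treg minus CD45RBhigh spans -1.64 to 0.39 without the block and -0.70 to -0.11 with it, while the Dll1 interval lies above 0 in both fits of both Treg comparisons.

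Replicates 1 and 2 differed from replicates 3 and 4, with the population in the model, at 4 of the 9 genes. The 3 Fringe enzymes were lower in replicates 1 and 2, beside 11.2% of all probe sets, and Notch2 was higher, beside 9.47%. For the Fringe enzymes the sets did not overlap in any population, as for 17.9% of all probe sets. The median log2 difference was -0.07 over the 9 genes and -0.03 over all probe sets. Each set holds 2 arrays of each population, except that Treg has 1 array in replicates 3 and 4.

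Lfng differed most, by -1.17 on the log2 scale (SE 0.10, adjusted p = 8.70e-05, limma), which is 2.25-fold lower in replicates 1 and 2. Its difference was -1.16 in Treg, -0.99 in CD45RBlow and -1.35 in CD45RBhigh arrays. That is wider than any difference of Lfng between populations.

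Rfng read 7.97 and 8.08 in Treg replicates 1 and 2 and 8.69 in replicate 4. In CD45RBlow arrays it read 8.35 and 8.07 in replicates 1 and 2, against 8.72 and 8.68 in replicates 3 and 4. In CD45RBhigh arrays it read 8.17 and 8.27, against 8.66 and 8.92. The same side was lower in each population, and the fitted log2 difference was -0.56 (SE 0.07, adjusted p = 0.000367), 1.48-fold lower in replicates 1 and 2.

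Mfng differed by -0.35 (SE 0.05, adjusted p = 0.000934), 1.27-fold lower in replicates 1 and 2. The calls for Lfng, Rfng and Mfng held without each of the 11 arrays in turn.

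Notch2 ran the other way, by 0.62 (SE 0.14, adjusted p = 0.00847), 1.54-fold higher in replicates 1 and 2. Its difference was 0.92 in Treg, 0.44 in CD45RBlow and 0.61 in CD45RBhigh arrays, and the sets overlapped in no Treg or CD45RBhigh array but did in CD45RBlow arrays. The call was lost without Treg replicate 4 (adjusted p = 0.0570) and without all Treg arrays (0.52, adjusted p = 0.0688).

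Notch1, Dll1, Dll4, Jag2 and Pofut1 did not pass the test between replicate sets. Their fitted differences ran from -0.22 for Jag2 (95% interval -0.46 to 0.03) to 0.09 for Dll1 (-0.05 to 0.23). The replicate set took 92.9% of the sum of squares within populations for Lfng, 90.9% for Mfng, 89.5% for Rfng and 65.5% for Notch2, against 0.0778% for Notch1. With the set in the model the residual SD of Lfng was 0.20, against 0.70 with the population alone. Per-population differences between the sets are plotted beside the fitted ones.

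**Figure D3:**
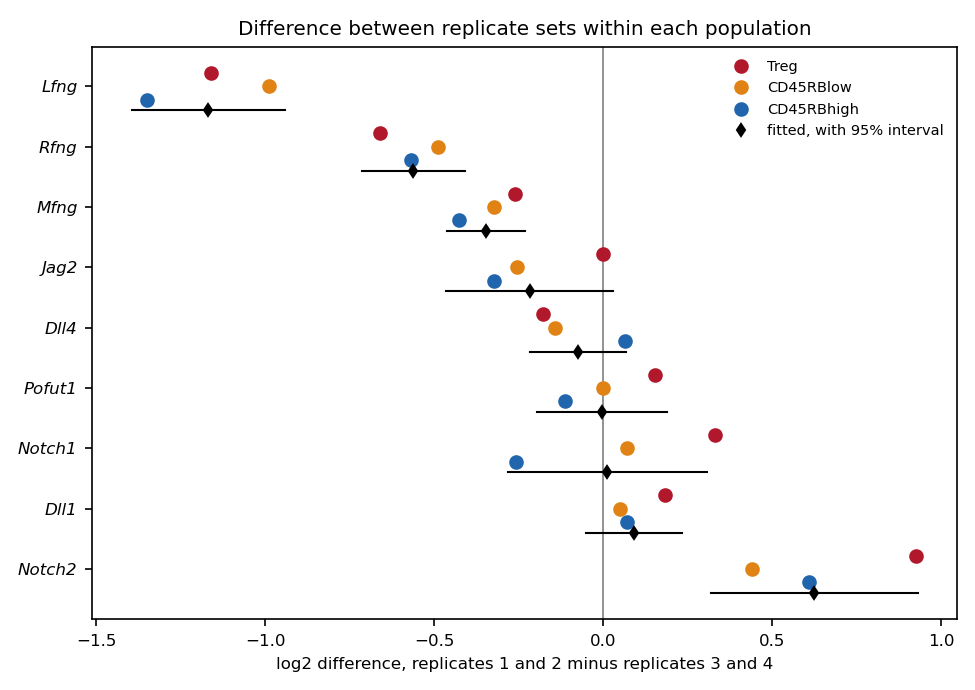
Log2 difference of replicates 1 and 2 minus replicates 3 and 4 for the 9 genes, within each population (circles) and fitted over all 11 arrays (diamonds, with 95% intervals). The Treg circle rests on 2 arrays against 1. All circles of Lfng, Rfng and Mfng lie below 0, and all circles of Notch2 above 0.

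Whether a population difference depended on the replicate set was tested as an interaction in limma. Of 27 tests on the 9 genes 0 passed, 0 had an unadjusted p under 0.05, and the lowest unadjusted p was 0.109 (adjusted p = 0.650), while 6 of 3738 tests over all probe sets passed. The intervals were wide: for Notch2 the Treg minus CD45RBhigh difference was larger by 0.32 in replicates 1 and 2, with a 95% interval from -0.51 to 1.14.

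Other genes of the pathway were read from a list of 31 names, of which 16 were measured. Between Treg and CD45RBhigh cells 4 were higher and 1 was lower, beside 10.3% and 8.59% of all probe sets. Psen2, a catalytic subunit of gamma-secretase, was higher by 0.67 (SE 0.13, adjusted p = 0.00306, limma). Rbpj, the DNA-binding partner of cleaved Notch, averaged 8.18 ± 0.29 (SD, n = 3) in Treg and 7.58 ± 0.15 (n = 4) in CD45RBhigh arrays (difference 0.60, adjusted p = 0.0164). Gmds, an enzyme that makes GDP-fucose, was higher by 0.49 (SE 0.08, adjusted p = 0.00103), and the ligand Jag1 by 0.50 (SE 0.16, adjusted p = 0.0458). B4galt1, a galactosyltransferase that can extend the sugar the Fringe enzymes add, was lower (difference -0.28, SE 0.08, adjusted p = 0.0228). Within replicates 1 and 2 the higher genes again passed and B4galt1 did not (-0.22, adjusted p = 0.188). Within replicates 3 and 4, where Treg has 1 array, none of these 5 passed: Psen2 differed by 0.40 (adjusted p = 0.0600), Rbpj by 0.34 (0.276), Gmds by 0.35 (0.0717), Jag1 by 0.24 (0.600) and B4galt1 by -0.36 (0.0907).

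Hes1, a target gene of Notch, read 5.11 to 5.33 in Treg and 4.89 to 5.12 in CD45RBhigh arrays. In the fit of all arrays without a block Hes1 did not pass (difference 0.20, adjusted p = 0.0882, limma). The difference depended on the replicate set used. It was 0.07 within replicates 1 and 2 (adjusted p = 0.647). Within replicates 3 and 4 it was wider, at 0.40, but rests there on 1 Treg array. Between Treg and CD45RBlow cells Psen2 (0.65, adjusted p = 0.00561) and Gmds (0.40, 0.00643) were higher and 0 of the 16 were lower, with 3 at an unadjusted p under 0.05. Between CD45RBlow and CD45RBhigh cells 0 passed, with 3 at an unadjusted p under 0.05. In the blocked fit Jag1 (adjusted p = 0.0402) and Rbpj (0.0315) were then higher in CD45RBlow cells and Gfus (0.0422) lower. Ncstn, another subunit of gamma-secretase, was lower in Treg cells with the block, with a difference of -0.39 from CD45RBhigh (adjusted p = 0.00572) and of -0.32 from CD45RBlow cells (0.0225). Notch3 and Dll3 were near background in all 3 populations.

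Between replicate sets 1 of the 16 was higher in replicates 1 and 2, Fpgt (0.32, adjusted p = 0.0483), and 6 were lower, beside 9.47% and 11.2% of all probe sets. Ncstn differed most, by -0.80 (SE 0.06, adjusted p = 6.02e-05). Of the 5 measured genes that make or carry GDP-fucose, Fpgt was thus higher, and 3 were lower, namely Gfus (-0.29), Slc35c1 (-0.44) and Slc35c2 (-0.51). Pofut2 (-0.44), which adds fucose to another kind of repeat, and the receptor Notch4 (-0.20) were lower too. Notch4 averaged 3.74 in Treg, 3.88 in CD45RBlow and 3.955 in CD45RBhigh arrays, little above the limit of 3.64 and below the median of every array. The size of its difference is therefore uncertain.

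Markers of other cells moved with some of these groups. Of 7 B cell markers 3 were measured. Cd72 was higher in Treg than in CD45RBhigh (0.54, adjusted p = 0.0173) and CD45RBlow cells (0.85, 0.00154). Cd22 was higher in Treg than in CD45RBhigh cells (0.29, 0.0181) but lower than in CD45RBlow cells (-0.30, 0.0235), and Fcer2a was near background in all. The mean of the 3 ran from 5.91 to 6.01 in Treg, 5.64 to 5.88 in CD45RBlow and 5.61 to 5.77 in CD45RBhigh arrays. Their part in the Notch2 and Dll1 results was not tested. Of 10 myeloid and dendritic markers 5 were measured, with a mean of 3.93 to 4.06 in Treg, 3.93 to 4.08 in CD45RBlow and 3.99 to 4.11 in CD45RBhigh arrays, and Mrc1 and Clec4a2 near background. Cd209a was lower in Treg than in CD45RBhigh cells (-0.24, adjusted p = 0.0476). Of 7 NK and CD8 T cell markers 3 were measured, Klrd1, Klra3 and Klra8, and all were lower in Treg than in CD45RBhigh cells. Their mean was 3.31 to 3.57 in Treg, 4.97 to 5.27 in CD45RBlow and 5.34 to 5.76 in CD45RBhigh arrays, with Klra3 near background in each. Most of this shift was Klrd1, which averaged 3.93 in Treg, 8.28 in CD45RBlow and 9.22 in CD45RBhigh arrays. Its Treg differences were -5.29 from CD45RBhigh (adjusted p = 1.42e-08, limma) and -4.35 from CD45RBlow cells (1.12e-07). Klra3 and Klra8 differed from CD45RBhigh cells by -0.45 and -0.40. The part of these markers in the Mfng result was not tested. Selp, the only platelet marker of 4 names that was measured, was higher in Treg than in CD45RBhigh (0.37, adjusted p = 0.0152) and CD45RBlow cells (0.48, 0.00490). Of 4 endothelial and stromal markers 2 were measured, with a mean of 6.44 to 6.86 in Treg, 6.501 to 6.84 in CD45RBlow and 6.88 to 7.09 in CD45RBhigh arrays. This mean joins unlike levels: Pecam1 averaged 9.18, 9.32 and 9.82 in these populations, and Pdgfrb 4.12, 4.02 and 4.19. Pecam1 was lower in Treg than in CD45RBhigh cells (-0.64, adjusted p = 0.00553).

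In CD45RBlow minus CD45RBhigh, the comparison with the Jag2 call, Klrd1 (-0.94, adjusted p = 0.00581), Pecam1 (-0.50, 0.0204) and Cd209a (-0.26, 0.0320) were lower and Cd22 was higher (0.59, 0.00015). The other measured B cell markers went the other way without passing, Cd72 by -0.30 (adjusted p = 0.156, limma) and Fcer2a by -0.12 (0.190). With the replicate block Cd72 passed as lower (adjusted p = 0.0153). The part of these markers in the Jag2 result was not tested. Between replicate sets, 3 of 4 Treg markers (Itgae, Il10 and Klrg1) and 2 of 5 markers of activated or memory cells (Cd44 by 0.82 and Ifng by 0.73) were higher in replicates 1 and 2. Cd72 was higher there as well (0.29, adjusted p = 0.0105), and Csf1r (-0.16, 0.0437) and Pdgfrb (-0.20, 0.0405) were lower. Their part in the Fringe and Notch2 results was not tested.

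For each gene whose population means spanned at least 0.5, the 2 other named genes with the most similar pattern over the 11 arrays were found by the root mean square difference of log2 values centred on each gene's mean, among 900 genes. For Dll1 these were Cd2 (0.132) and Igf2r (0.142), where Dll1 itself varied by 0.303 about its mean. Lfng was followed by Ncstn (0.223) and B3galt4 (0.269), against 0.654 for Lfng itself. Mfng had the closest neighbours, Neu1 (0.0796) and Abhd16a (0.0840), against 0.277. For Notch2 they were B4galt4 (0.274) and Ugp2 (0.308), against 0.545. For Jag2 they were Ctns (0.137) and Siglech (0.155, near background in every population), against 0.309. These are descriptions over 11 arrays that share populations and replicate sets.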

How the data were processed

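RNA of each sorted sample was amplified and labelled with biotin, and 1 glycan gene chip was hybridised per sample. For RNA extraction the labels and the series text differ (Trizol, RNeasy). The authors summarised each probe set with RMA into the deposited log2 values, per the series text and the submitters' processing notes (version not given in the sources used here). These were used as they stand. Probe sets were named through RefSeq transcripts, versions dropped (963 of 1246 named), with GRCm38.p6 annotation used for names and promoter windows only.

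With limma 3.58.1 (R 4.3.3), population means were fitted over the 11 arrays together (residual degrees of freedom 8, prior 2.87), with two-sided tests, p-values adjusted by Benjamini-Hochberg over 1246 probe sets, a threshold of 0.05 and 95% intervals. Replicate sets were compared with population in the model. Deviations from population means correlated at 0.310 to 0.561 (median 0.461) between the 10 pairs of arrays with 1 replicate number, so the numbers, which come from the labels, were taken to pair samples. Between other numbers of the same set the median was 0.279 and the highest value 0.579, and between sets the median was -0.397. With the replicate set in the model, the consensus correlation within a replicate number was -0.0567. Pairing by number beyond the replicate set was therefore not shown. The blocked value is printed where it changes a call. The genes and lists, and the rule for named genes (all 10 names, pathway genes past the threshold, 2 nearest patterns per gene that spans 0.5), were chosen with earlier results of these data known. The fits were tested on simulated data with independent noise. No difference between replicate sets was added for the population tests, so that spread was not covered there. Alternatives were a block, the replicate set as a term, other scalings, removal of dim probe sets, a moderation with trend, 1 row per gene, only the arrays compared and leaving out each array. Separate fits of each replicate set were added after seeing the data. Figures used matplotlib 3.10.9 under Python 3.11.15.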

Additional observations from a re-analysis of the deposited data

Results flagged for a closer look

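Of 18 groups of 4 arrays tested over the 9 genes, 3 had an array far from the other members of its group, where chance gives about 1 in 20 groups. Notch2 in CD45RBlow cells was highest in replicate 2, at 9.57. Dll4 in CD45RBhigh cells was highest in replicate 1, at 5.52. Jag2 in CD45RBhigh cells was highest in replicate 4, at 6.28.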

How the results depend on the processing

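Dll1 kept its direction in both Treg comparisons under every alternative that could be run on it, and Lfng, Rfng and Mfng kept theirs between replicate sets. Precision is limited by 1 Treg array in replicates 3 and 4, and by Dll1 lying near background in CD25- cells. With the replicate block, calls in Treg minus CD45RBlow came to 245 probe sets and 3 of the 9 genes, and in CD45RBlow minus CD45RBhigh to 271 probe sets; beyond Lfng, Notch2 and Mfng as given in the text, the block changed no other call on the 9 genes; as a random block, the number called neither Lfng in Treg minus CD45RBhigh nor Notch2 in Treg minus CD45RBlow. With the replicate set as a term these counts were 238, 3 and 247. Separate fits of replicates 3 and 4 called 88, 49 and 63 probe sets in Treg minus CD45RBhigh, Treg minus CD45RBlow and CD45RBlow minus CD45RBhigh, and 0 of the 9 genes in each; they hold fewer arrays. In Treg minus CD45RBlow, genes called were 3 within replicates 1 and 2 (Notch2, Dll1 and Mfng), 3 in their separate fit (Dll1, Jag2 and Mfng), 2 within replicates 3 and 4, 2 with a random block, and 0 above the first quartile, which removes Dll1. In CD45RBlow minus CD45RBhigh they were 0 within each set and 0 with only the arrays compared. Without the Treg arrays 145 probe sets differed between replicate sets. Without each array in turn, genes called ran from 1 to 3 in Treg minus CD45RBhigh, 1 to 2 in Treg minus CD45RBlow, 0 to 1 in CD45RBlow minus CD45RBhigh and 3 to 4 between sets, and probe sets from 164 to 227, 110 to 162, 113 to 151 and 155 to 251; the last fell to 155 without Treg replicate 4, against 257 with all arrays. The causes of these shifts were not tested.

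Signs turned only for differences that passed no threshold. In Treg minus CD45RBhigh these were Notch1 with the block (-0.00825) and in replicates 3 and 4 (-0.29, also in their separate fit), Dll4 with the block (0.00981) and in replicates 3 and 4 (0.13 in both fits), and Pofut1 in replicates 1 and 2 (0.11 in both fits) and after a second quantile normalization (0.00972). In Treg minus CD45RBlow it was Notch1 in replicates 3 and 4 (-0.10 in both fits). In CD45RBlow minus CD45RBhigh they were Notch1 (0.14) and Lfng (0.13) in replicates 1 and 2, in both fits. Between replicate sets they were Notch1 without the Treg arrays (-0.0936) and Pofut1 with median centring (0.00288). Without each array in turn, Notch1 ran from -0.0627 to 0.212, Dll4 from -0.0786 to 0.0278 and Pofut1 from -0.0694 to 0.101 in Treg minus CD45RBhigh, and Notch1 from -0.0362 to 0.190 in Treg minus CD45RBlow. In CD45RBlow minus CD45RBhigh, Notch1 ran from -0.12 to 0.13, Lfng from -0.37 to 0.18 and Rfng from -0.16 to 0.0887. Between sets, Notch1 ran from -0.0936 to 0.149 and Pofut1 from -0.0622 to 0.0839. The mean over all probe sets of a gene was not run, since each gene had 1.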
